A study of Canis lupus familiaris with 17 samples.

Results

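Th2-like CD4 T cells were examined among circulating leukocytes of 17 dogs profiled by single-cell RNA sequencing. A barcode was counted as a Th2-like cell when it carried at least 1 unique molecular identifier (UMI, the tag of 1 captured RNA molecule) of CD3E, CD4 and GATA3, none of CD8A, MS4A1, CCR6, FOXP3 and S100A12, and at least 1 UMI of ITGA2, CCDC3, PPEF1 or CMA1. By this rule 2233 of 84361 kept barcodes were Th2-like cells, which was 2.65% of all kept barcodes, 16.5% of the 13558 CD4 T cells (CD3E and CD4 detected, CD8A, MS4A1 and S100A12 not detected) and 46.1% of the 4840 CD4 T cells with GATA3 and without CCR6 or FOXP3. Of the Th2-like cells 943 came from 7 healthy dogs and 1290 from 10 dogs with osteosarcoma (OS), a bone tumor that arises spontaneously in this species. All dogs carried the label wild type, the OS dogs had a primary tumor and had not been treated, and no age, breed or sex was used here. The study names the age difference between its groups as a possible confounder, so differences between OS and healthy dogs below need not come from OS. Each library held the blood leukocytes of 1 dog that remained after density gradient centrifugation and red cell lysis, and the cells were neither sorted nor stimulated.

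Helper T cells of the Th2 type develop under the transcription factor GATA3, which opens and activates the locus of the type 2 cytokines IL4, IL5 and IL13. They support antibody class switching to IgE, eosinophils and mast cells, and are known in blood by receptors such as CCR4, PTGDR2 and IL1RL1 in people. GATA3 is also needed for CD4 T cell development in the thymus and is present at lower levels in other T cells, so a cell with a GATA3 transcript is not by that alone a Th2 cell. Of the 4 genes that completed the rule, ITGA2 encodes the collagen-binding integrin alpha 2, CCDC3 a secreted coiled-coil protein, PPEF1 a calcium-regulated serine/threonine phosphatase and CMA1 mast cell chymase.

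Libraries held 7740230 to 56510134 UMIs (median 37922492) and 1239 to 7072 kept barcodes, with medians of 3674.5 to 6718 UMIs per kept barcode. Dogs yielded 34 to 261 Th2-like cells, with a median of 125. Th2-like cells were deeper than GATA3-positive cells without the 4 genes: the median UMI count per Th2-like cell, averaged over dogs, was 6567 ± 864 (SD, n = 17 dogs), against 5944 ± 792 in CD4 T cells with GATA3 and none of the 4 genes. The former was higher in 16 of 17 dogs. At most 0.332% of the barcodes of the smaller of any 2 libraries were shared. Barcodes were scored with Scrublet, a doublet caller, and the highest scores up to a preset rate were marked. Marked barcodes were 107 of the 2233 Th2-like cells (4.79%). Of all kept barcodes of a dog, the preset rate marked 0.969% (OS dog 3) to 5.66% (healthy dog 4).

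The 4 genes contributed unequally to the selection, as a description of what the rule used. PPEF1 was detected in 956 Th2-like cells (42.8%), CMA1 in 950 (42.5%), CCDC3 in 652 (29.2%) and ITGA2 in 459 (20.6%). A cell usually qualified through a lone gene: 1634 cells (73.2%) carried 1 of the 4, 444 carried 2, 125 carried 3 and 30 carried all 4. PPEF1 alone selected 591 cells, CMA1 alone 536, CCDC3 alone 338 and ITGA2 alone 169. Of the Th2-like cells 1288 (57.7%) had a single UMI of GATA3, and 597 (26.7%) had exactly 1 UMI of GATA3 and 1 UMI in all of the 4 genes, so that the loss of 1 molecule would have moved them outside the rule. Just outside stood the 2607 GATA3-positive CD4 T cells with 0 UMIs of the 4 genes, which are called GATA3-only cells below.

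Detection of the same genes was next compared with that in other cell populations. GATA3 was detected in 39.5% ± 5.97 of CD4 T cells (SD over 17 dogs), in 24.6% ± 6.39 of CD8A-positive T cells and in 0.34% ± 0.349 of B cells (MS4A1 detected, CD3E not). ITGA2 was found in 6.55% of CD4 T cells, 2.57% of CD8A-positive T cells and 0.853% of B cells. CCDC3 was found in 11.5% of CD4 T cells, 2.24% of CD8A-positive T cells and 0.0458% of B cells, the latter being 2 of 4337 cells. PPEF1 was found in 17.7% of CD4 T cells, 5.43% of CD8A-positive T cells and 3.11% of B cells. CMA1 ran the other way, with 13.8% of CD4 T cells and 29.2% of CD8A-positive T cells, so that in these libraries the gene was found more often in CD8A-positive than in CD4 T cells. Median depths were 5978 UMIs in CD4 T cells, 5361 in CD8A-positive T cells and 4578 in B cells, as means over dogs. After every barcode was thinned to 2000 UMIs, which left out 10552 shallower barcodes, the order was kept: CMA1 was found in 5.89% of CD4 T cells and 16.6% of CD8A-positive T cells, and CCDC3 in 6.53% and 1.02%.

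**Figure D1:**
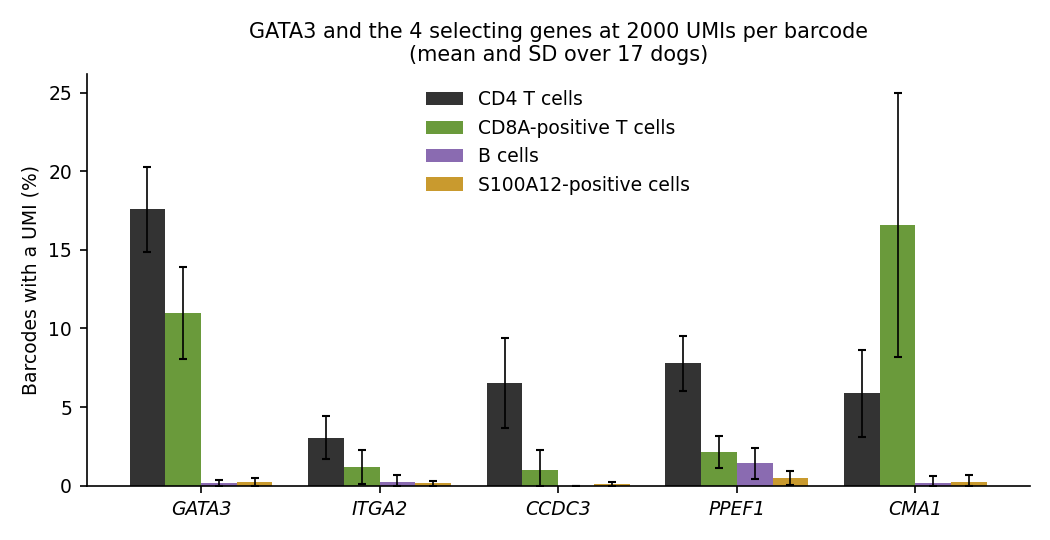
Share of barcodes with at least 1 UMI of GATA3, ITGA2, CCDC3, PPEF1 and CMA1 (y axis, percent) in 4 cell populations after thinning to 2000 UMIs per barcode; bars are means over 17 dogs and error bars the SD. CCDC3, PPEF1 and ITGA2 were highest in CD4 T cells and CMA1 in CD8A-positive T cells, at 16.6% against 5.89%.

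Type 2 cytokine transcripts, the defining product of Th2 cells, were at background. IL4 was detected in 9 of 2233 Th2-like cells, a mean of 0.315% over dogs against 0.238% in B cells and 0.186% in CD8A-positive T cells. IL5 was detected in 4 cells and IL10 in 4. IL13 and IL31, an itch cytokine of canine Th2 cells, were each found in 0 of 2233 cells, which allows a share of cells with a UMI of up to 0.134% and covers counting error only. Both genes also had 0 UMIs in the GATA3-only cells of every dog. The same held for CD4 T cells without GATA3, CCR6, FOXP3 and the 4 genes. Whether these libraries can detect IL13 and IL31 was not tested. The name Th2-like thus came from GATA3 and the 4 genes of the rule, and cytokine transcripts were too few to check it. MS4A2, the beta chain of the high-affinity IgE receptor of mast cells and basophils, was found in 9 Th2-like cells, at 0.373% on average, against 12.9% of S100A12-positive, CD3E-negative cells.

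The joint presence of the 4 genes in all 4840 GATA3-positive CD4 T cells is given as a description, with no test, since the rule used these genes. After thinning to 2000 UMIs, 1076 cells still had GATA3 and 52 of them had ITGA2. The share of cells with a second gene then differed between cells with and without the first by -2.06 to 5.69 percentage points over the 6 pairs, with an SD over dogs of 10.8 to 21.3 that was larger than each difference. At 3000 UMIs, with 134 ITGA2 cells, the difference was 10.2 ± 16.2 percentage points for ITGA2 with CCDC3, 8.72 ± 12.7 for ITGA2 with CMA1 and -4.63 ± 7.73 for PPEF1 with CMA1. It was 1.25 ± 13.7 for ITGA2 with PPEF1, 1.47 ± 13.8 for CCDC3 with PPEF1 and 2.96 ± 12.0 for CCDC3 with CMA1. Without thinning 38% of cells with ITGA2 had CMA1 and 16.6% of cells without it did, a difference of 21.3 ± 15.4 percentage points (SD, higher in 15 of 17 dogs). Unthinned cells differed in depth, and their depth and co-detection cannot be told apart in this value.

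To ask whether Th2-like cells took another share of helper T cells in OS, the share of each dog was compared between groups. In healthy dogs Th2-like cells made up 14.5% ± 2.89 of CD4 T cells (SD, n = 7; lowest 11.1%, median 13.6%, highest 19.9%). In OS dogs the share was 17.5% ± 4.30 (n = 10; lowest 11.1%, median 16.7%, highest 23.8%), and 8 of the 10 stood above the healthy median. The ranges of the groups overlapped, with the lowest dog a healthy one and the highest an OS dog. The shift between groups was 2.74 percentage points (95% interval -0.585 to 7.70) and did not pass in a Wilcoxon rank-sum test, exact and two-sided (exact p = 0.161, adjusted p = 0.810 over 9 comparisons). The 9 included the detection of ITGA2, CCDC3, PPEF1 and CMA1 in Th2-like cells, which the rule used. The adjusted p was not recomputed without them. With barcodes thinned to 2000 UMIs the shares were 4.26% and 4.85% (exact p = 0.601).

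**Figure D2:**
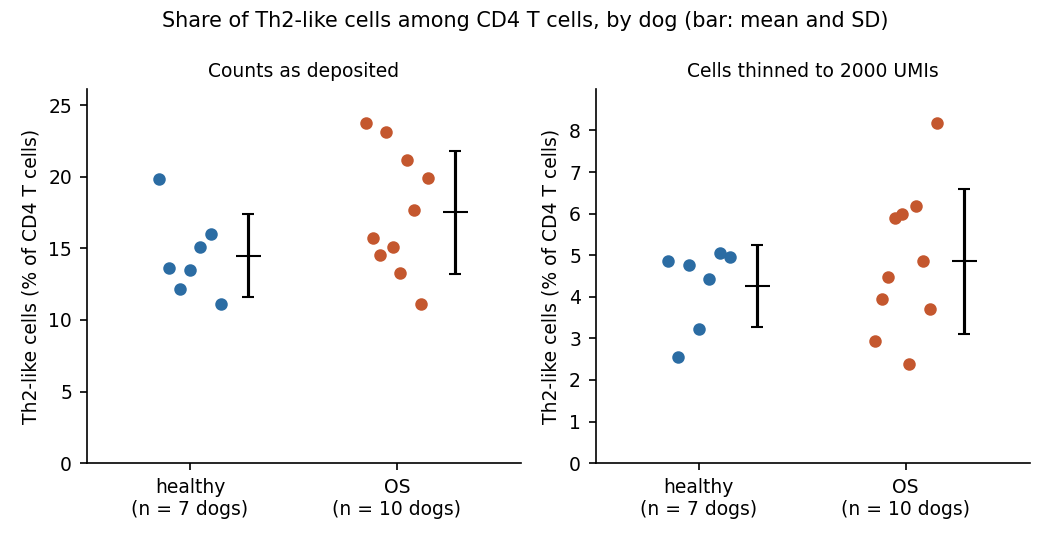
Th2-like cells as a percentage of CD4 T cells in each dog (y axis; points are dogs, crosses with bars the mean and SD), with counts as deposited on the left and barcodes thinned to 2000 UMIs on the right. The 7 healthy dogs ran from 11.1% to 19.9% and the 10 OS dogs from 11.1% to 23.8%.

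As a share of all kept barcodes Th2-like cells were 2.65% ± 1.1 in healthy dogs and 2.73% ± 0.991 in OS dogs, a shift of 0.0481 percentage points (95% interval -0.959 to 1.25, exact Wilcoxon p = 0.962). The 4 genes, which the rule used, are given by group as a description. ITGA2 was detected in 18.8% of Th2-like cells of healthy dogs and 21.1% of those of OS dogs, CCDC3 in 29.3% and 29.2%, PPEF1 in 44.2% and 42.2% and CMA1 in 40.5% and 40.7%. Cells with at least 2 of the 4 genes were 25.2% and 25.6% of Th2-like cells.

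Th2-like cells were next set against GATA3-only cells of the same dog, which share every condition of the rule except the 4 genes. In the 17 dogs 117 of 12535 genes tested differed at an adjusted p below 0.01 and a change beyond 0.58 on the log2 scale, which is 0.933% of genes; 59 were higher in Th2-like cells (0.471%) and 58 lower (0.463%). Values below are CPM, a gene's share of the UMIs summed over a dog's cells scaled to 1000000 UMIs. Fold changes are log2 ratios from edgeR, and their standard errors were derived from the fold change and the F statistic of its test. GATA3 itself, a gene of the rule, stood at 245 ± 26.0 CPM in Th2-like cells and 233 ± 23.3 CPM in GATA3-only cells (SD, n = 17), as a description.

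The 4 genes that the study named beside the rule genes for its Th2-like cluster were all higher, and as they were picked from these libraries their direction is no independent evidence. LGALS3, which encodes the lectin galectin-3, ran from 142 to 433 CPM over dogs in Th2-like cells (median 291) and from 64.0 to 272 CPM in GATA3-only cells (median 142). Th2-like cells had the higher value in each of the 17 dogs, although the ranges overlapped between dogs. The log2 fold change was 0.97 ± 0.06 (SE, adjusted p = 8.5e-18). RNF220, a ubiquitin ligase, stood at 21.2 to 112 CPM (median 77.2) against 17.9 to 55.4 CPM (median 33.1). It was higher in 14 of 17 dogs, with a log2 fold change of 1.01 ± 0.11 (adjusted p = 1.4e-09), and in the other 3 dogs the levels in Th2-like cells were near those of GATA3-only cells. S100A2, a calcium-binding protein, averaged 55.3 ± 17 against 29.5 ± 15.5 CPM (log2 fold change 0.87 ± 0.10, higher in 16 dogs). PTPN13, a tyrosine phosphatase, averaged 89.7 ± 59.6 against 51.5 ± 37.4 CPM (log2 fold change 0.68 ± 0.09, higher in 15 dogs). The study also listed PTPN13 for its Th1-like and Th17-like cells, so that gene is not particular to its Th2-like cluster.

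The other genes with the largest increases had varied known roles. PLEKHA5, a pleckstrin homology domain protein, averaged 99.6 ± 62.6 CPM in Th2-like cells and 48.9 ± 36.3 CPM in GATA3-only cells, and was higher in all 17 dogs (log2 fold change 0.99 ± 0.10, adjusted p = 2.9e-11). RBP4, the plasma carrier of retinol, averaged 63.7 ± 29.1 against 29.1 ± 18.1 CPM and was higher in 16 dogs (log2 fold change 1.18 ± 0.10, adjusted p = 6.3e-13). NTRK2, the receptor of brain-derived neurotrophic factor, averaged 26.6 ± 12.7 against 12.7 ± 10.3 CPM. VSTM1, an inhibitory receptor of leukocytes, averaged 11.2 ± 7.36 against 4.78 ± 3.86 CPM. CNTNAP1, an axonal adhesion protein, KCNC2, a potassium channel, CLSTN2, a calsyntenin, and SLC4A4, a bicarbonate transporter, had log2 fold changes of 1.92 ± 0.27, 1.51 ± 0.29, 1.47 ± 0.23 and 1.00 ± 0.20 at means of 10.1 to 22 CPM. KCNC2 and VSTM1 no longer passed when cells selected through CMA1 alone were not counted, and in healthy dogs only SLC4A4 (0.52) and NTRK2 (0.65) did not pass, nor did VSTM1 in OS dogs only (0.97).

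Some genes of naive T cells were lower in Th2-like cells. RGS10, a regulator of G protein signaling, ran from 26.7 to 171 CPM in Th2-like cells (median 86.3) and from 73.1 to 342 CPM in GATA3-only cells (median 211). It was lower in every one of the 17 dogs (log2 fold change -1.19 ± 0.07, adjusted p = 6.5e-19). CCR7, the receptor that guides naive and central memory T cells into lymph nodes, averaged 123 ± 44.0 against 187 ± 56.3 CPM (log2 fold change -0.63 ± 0.06, lower in 16 dogs), and ZNF536, a zinc finger protein, 27.3 ± 27.3 against 50.4 ± 27.4 CPM (-1.02 ± 0.15). Of the 14 naive and central memory genes tested these 3 passed both thresholds, 0 passed upwards, and the median log2 fold change was -0.37, against -0.01 over all genes tested. The other direction was seen in 4 of the 14, TSHZ2, ID3, EFHC2 and S1PR1, with log2 fold changes from 0.07 to 0.19 that did not pass. LEF1, a transcription factor of naive T cells, was lower in 17 of 17 dogs but by less than the fold threshold (log2 fold change -0.37 ± 0.04). CCR7 stood at -0.52 when cells selected through CMA1 alone were not counted, and so under the fold threshold, and ZNF536 did not pass in OS dogs only (-0.76). RGS10 and ZNF536 were on the list because the study used them for these cells. CCR7 and LEF1 are also among the markers that the study gave for naive CD4 T cells. As the study drew these markers from the same libraries, their direction is no independent evidence.

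**Figure D3:**
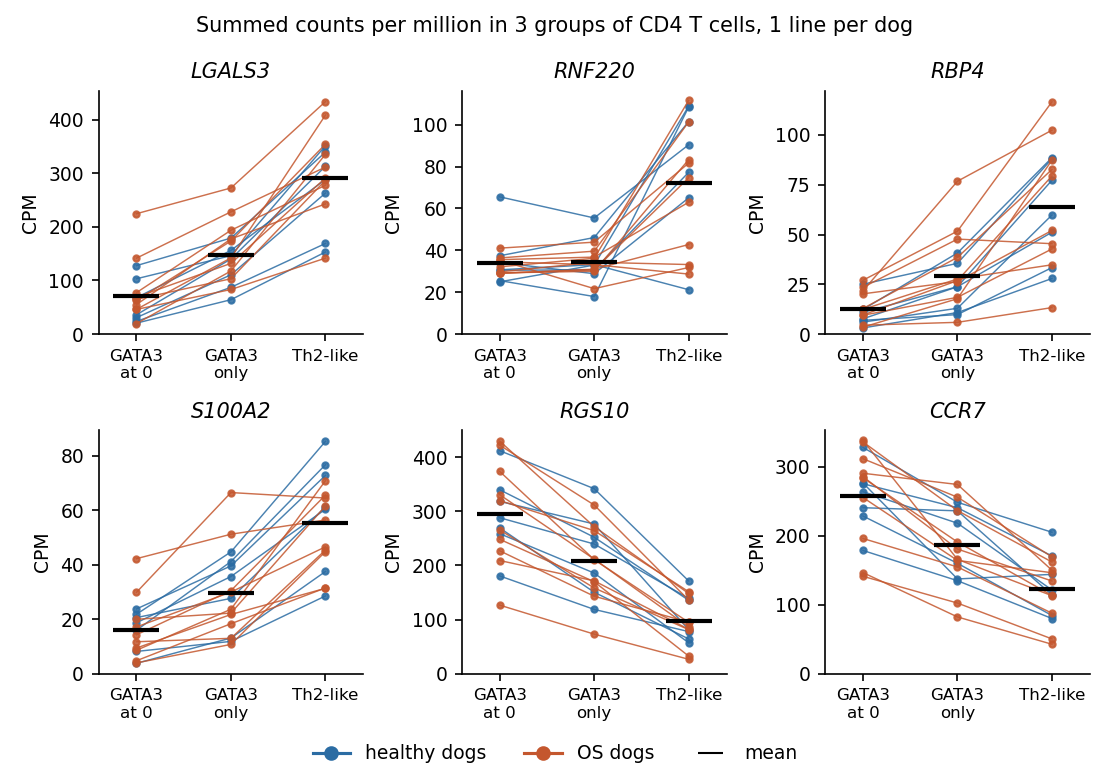
CPM of 6 genes (y axes) in CD4 T cells with GATA3 at 0, GATA3-only cells and Th2-like cells, with 1 line per dog (blue healthy, orange OS) and the mean as a black bar. LGALS3 rose from a mean of 71.4 through 147 to 292 CPM, RNF220 stood at 34.1 and 34.2 CPM in the first 2 populations and at 72.0 CPM in Th2-like cells, and RGS10 fell from 295 through 209 to 97.7 CPM.

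Further genes were lower in Th2-like cells. MAL, a membrane proteolipid of T cells, averaged 3.57 ± 5.15 against 16.5 ± 22.2 CPM (log2 fold change -1.95 ± 0.23). IGF1R, the receptor of insulin-like growth factor 1, averaged 43.6 ± 22.4 against 92.8 ± 47.7 CPM (-1.10 ± 0.11), and AUTS2, a regulator of transcription, 64.8 ± 48.7 against 131 ± 77.5 CPM (-1.07 ± 0.10). KANK1, COL6A5, SGIP1, NKAIN2 and BLNK had log2 fold changes between -1.34 and -1.07 and were lower in 14 to 16 of the 17 dogs. BLNK did not pass in healthy dogs only (-0.86), nor SGIP1 in OS dogs only (-0.96). KANK1 organizes the actin cytoskeleton, COL6A5 is a collagen chain that the study used as a marker of naive CD4 T cells, and BLNK is an adaptor of B cell receptor signaling.

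Few genes that define Th2 cells elsewhere passed the thresholds between Th2-like and GATA3-only cells. Of the 10 Th2 transcription factors tested 0 passed (median log2 fold change 0.07). MAF, an activator of IL4, averaged 231 ± 42.5 against 176 ± 37.6 CPM and was higher in 16 of 17 dogs at a log2 fold change of 0.34 ± 0.05 (adjusted p = 4.5e-06), under the fold threshold. IRF4 stood at 9.27 against 14.7 CPM (-0.68 ± 0.19, adjusted p = 0.0174). Of the 9 Th2 receptors and enzymes tested CRLF2, the receptor chain of thymic stromal lymphopoietin, rose, from 3.02 ± 2.86 to 7.85 ± 5.06 CPM (log2 fold change 1.48 ± 0.29, adjusted p = 0.000254, higher in 14 dogs). It did not pass in healthy dogs only (1.37) or in OS dogs only (1.59). The Th2 homing receptor CCR4 stood at 2.29 against 1.11 CPM without passing (0.99 ± 0.46, adjusted p = 0.287), and IL4R at 42.0 against 50.7 CPM (-0.31 ± 0.08). IL1RL1 was higher in 6 dogs and lower in 10. PTGDR2 was above 0 CPM in Th2-like cells of 1 dog and at 0 in GATA3-only cells of every dog. The 9 receptors and enzymes had 5 log2 fold changes above 0 and 4 below. Of the 3 Th2 cytokines with enough counts 0 passed, at median log2 fold change -0.14. CCR10, a homing receptor for skin and mucosa, averaged 8.67 ± 9.01 against 3.52 ± 3.27 CPM (1.15 ± 0.30, adjusted p = 0.00761) and was the 1 of 16 adhesion and homing genes that passed. That call ended under DESeq2, against cells of the nearest UMI total (1.01), when cells selected through CMA1 alone were not counted, in healthy dogs only (0.43) and when any 1 of 9 dogs was left out (healthy 1, 3 and 6, OS 1, 6, 7, 8, 9 and 10; log2 fold change 1.04 to 1.14).

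Genes of other helper states were also examined. Of 13 Th17 genes tested NTRK2 and NPAS2, a circadian transcription factor, rose, and both are genes the study used for Th17-like cells. Log2 fold changes were above 0 for 10 of the 13 (median 0.26), and the summed Th17 level was higher in 16 of 17 dogs (median 713 against 525 CPM). RORA, a lineage factor shared by Th17 and type 2 innate cells, was higher in 17 of 17 dogs at 453 ± 123 against 319 ± 95.1 CPM, with a log2 fold change of 0.48 ± 0.04 that stayed under the fold threshold. Of 15 Th1 genes tested CCL4 fell (log2 fold change -1.11 ± 0.22, lower in 12 dogs), a call that ended under DESeq2 and in OS dogs only (-0.77). Of 10 regulatory T cell genes 0 passed, and of 16 memory and activation genes 0 passed, although 14 of the latter had a log2 fold change above 0 (median 0.23). LGALS1, encoding galectin-1, was higher in 17 of 17 dogs at 579 ± 134 against 431 ± 109 CPM (0.39 ± 0.04), and AHNAK, a scaffold protein, in 16 dogs (0.55 ± 0.08).

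**Figure D4:**
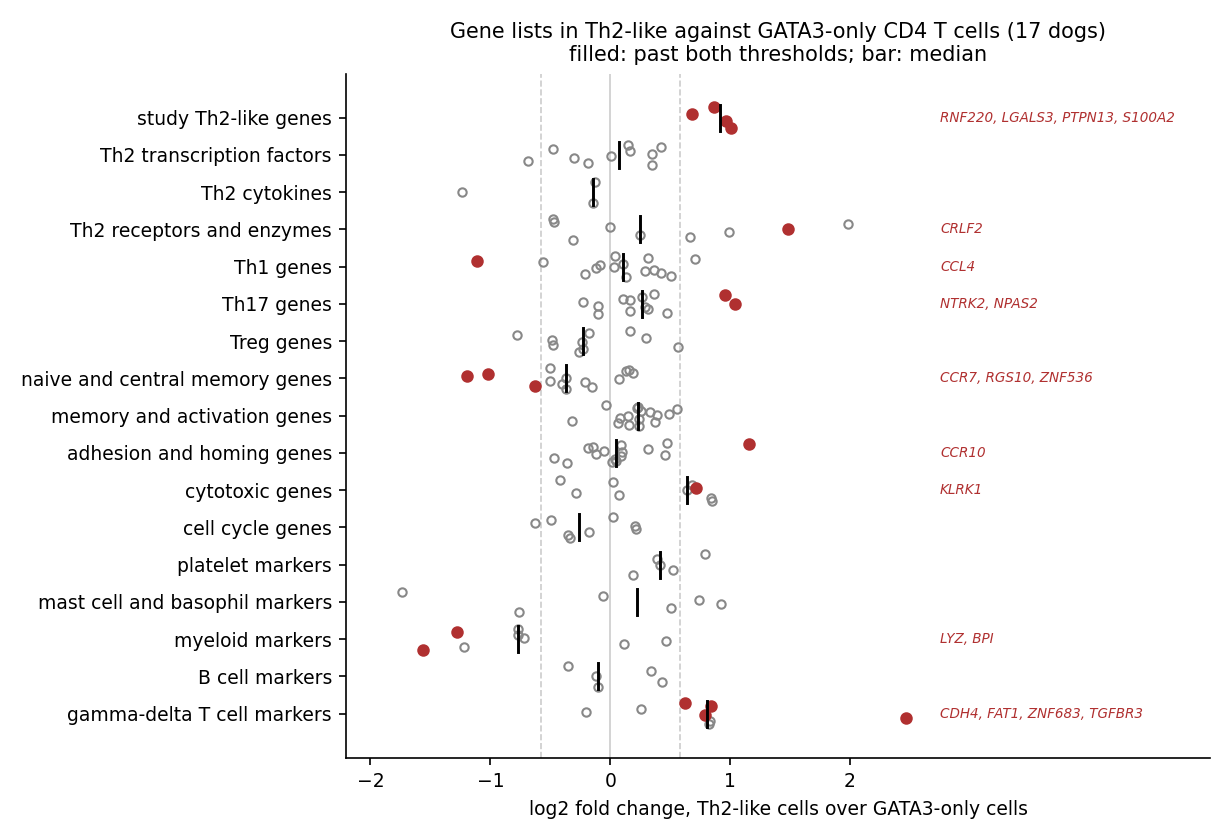
Log2 fold change between Th2-like and GATA3-only CD4 T cells (x axis) for the genes tested of 17 lists (rows); filled points passed both thresholds, open points did not, the black bar is the median of the list, dashed lines mark 0.58 in each direction, and genes that passed are named at the right. All 4 study Th2-like genes and 4 of 8 gamma-delta T cell markers lie to the right, and 3 of 14 naive and central memory genes to the left.

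Markers of other cells moved with this comparison. Of 8 gamma-delta T cell markers of the study CDH4, FAT1, ZNF683 and TGFBR3 rose and 0 fell (median log2 fold change 0.81). Their summed level was 79.0 to 165 CPM in Th2-like cells (median 118) and 44.6 to 182 CPM in GATA3-only cells (median 78.3), and was higher in 15 of 17 dogs. CDH4, encoding R-cadherin, averaged 12.7 ± 15.3 against 2.14 ± 2.77 CPM and stood at 0 in 3 dogs of the former and 7 of the latter. ZNF683 (0.84 ± 0.22) did not pass under DESeq2, at the nearest UMI total, when CMA1 was not counted or when any 1 of 10 dogs was left out (healthy 1, 2, 3, 4, 5 and 7, OS 1, 2, 5 and 10; 0.68 to 0.86), and TGFBR3 (0.62 ± 0.14) fell under the fold threshold without healthy dog 6, OS dog 1 or OS dog 9 (0.57, 0.52 and 0.57). In healthy dogs only TGFBR3 stood at 0.34 and in OS dogs only ZNF683 stood at 0.42, and neither passed. FAT1 did not pass in healthy dogs only (0.81) or in OS dogs only (0.77). Of 8 myeloid markers LYZ and BPI fell. LYZ, lysozyme, averaged 140 ± 227 against 347 ± 402 CPM with a median over dogs of 36.9 against 170 CPM, and the fall was seen in 11 of 17 dogs. The LYZ call ended after removal of marked doublets (-0.85) or under DESeq2, and that of BPI after removal of doublets (-0.82) or in healthy dogs only (-0.60). S100A8, listed as a myeloid marker, was instead higher in all 17 dogs at 2342 ± 623 against 1681 ± 585 CPM (log2 fold change 0.47 ± 0.03), and was detected in 88.2% of Th2-like cells against 15% of B cells. Of 9 cytotoxic genes KLRK1, the receptor NKG2D, rose (0.72 ± 0.15), and its log2 fold change was -0.01 when cells selected through CMA1 alone were not counted and 0.51, without passing, in healthy dogs only. Platelet, mast cell and basophil, B cell and cell cycle lists had 0 genes past the thresholds, out of 5, 6, 5 and 8 tested. The summed platelet markers were 4.54 to 190 CPM (median 76.8) in Th2-like cells and 2.64 to 128 CPM (median 55.6) in GATA3-only cells, and the summed mast cell and basophil markers 0.898 to 21.0 CPM (median 3.66) and 0 to 20.1 CPM (median 3.97). The summed B cell markers without CD79A, which was found in 97.8% of B cells and 99.7% of Th2-like cells, were 0 to 135 CPM (median 13.1) and 8.39 to 87.0 CPM (median 16.5). The part of these cells in the differences above was not tested. With 2113 of the 2233 Th2-like cells each set beside a GATA3-only cell of the same dog near to it in UMI total, 108 genes passed. This narrowed the depth gap without closing it: the median UMI counts were then 6504 and 6233 as means over dogs, and 7594 against 6582 in OS dog 1.

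CD4 T cells with no UMI of GATA3, CCR6, FOXP3 or the 4 genes (GATA3-zero cells, 5205 cells) were a further comparison that was chosen after the data had been examined. Their median UMI count was 5559 ± 895 (SD over 17 dogs), against 6567 in Th2-like cells, and Th2-like cells were deeper in 17 of 17 dogs. Here 611 of 12985 genes passed (4.71%), 376 higher in Th2-like cells (2.9%) and 235 lower (1.81%). With GATA3-zero cells of the nearest UMI total 569 genes passed, 301 higher in Th2-like cells and 268 lower. The median UMI counts were then 6567 in Th2-like and 6411 in GATA3-zero cells, as means over dogs. This comparison shares its Th2-like cells with the one above, so the values are given side by side and not as a repeat. LGALS3 stood at 71.4 ± 52.9 CPM in GATA3-zero cells (log2 fold change 2.12 ± 0.12), S100A2 at 16.2 ± 10.1 CPM (1.79 ± 0.12), PTPN13 at 31.9 ± 24.3 CPM (1.42 ± 0.09) and RNF220 at 34.1 ± 9.14 CPM (1.01 ± 0.12). The first 3 genes were higher in Th2-like cells of all 17 dogs, and RNF220 in 14.

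Among the largest increases over GATA3-zero cells was that of DBX2, a homeobox factor, at 17.9 ± 18.0 against 1.04 ± 1.21 CPM (log2 fold change 3.78 ± 0.25, higher in 16 dogs). GSDMA, gasdermin A, stood at 20.1 ± 9.70 against 4.59 ± 3.11 CPM (2.14 ± 0.16) and NRP1, neuropilin 1, at 15.3 ± 11.8 against 3.58 ± 2.04 CPM (1.88 ± 0.26). RBP4, CLSTN2, CDH4, VSTM1, NTRK2 and the G protein subunit GNG3 were, with LGALS3, the rest of the 10 largest at a mean of at least 10 CPM and the same direction in at least 80% of dogs, with log2 fold changes from 1.85 to 2.35. Some receptors of Th2 cells and skin homing were low in GATA3-zero cells and others were not. CCR4 stood at 2.29 ± 1.5 against 0.123 ± 0.297 CPM (3.40 ± 0.54) with 14 of 17 dogs at 0 in GATA3-zero cells, CRLF2 at 7.85 against 0.735 CPM (3.34 ± 0.38) and CCR10 at 8.67 against 0.714 CPM (3.44 ± 0.35). IL4R stood at 42.0 against 52.2 CPM (-0.36 ± 0.08), and the summed list of Th2 receptors and enzymes had a median over dogs of 80.9 CPM in Th2-like and 70.9 CPM in GATA3-zero cells. Of 9 Th2 receptors and enzymes 3 rose and 0 fell, the third being IL1RL1, the receptor of IL-33 (1.51 ± 0.43), whose call ended under DESeq2, against cells of the nearest UMI total (1.21), when CMA1 was not counted (0.81) and when any 1 of 10 dogs was left out (healthy 1, 2, 5 and 7, OS 1, 2, 4, 8, 9 and 10; log2 fold change 1.20 to 1.59). In addition, of 10 Th2 transcription factors MAF (1.09 ± 0.08) and EPAS1 (1.09 ± 0.13) rose.

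ITGB1, the integrin beta 1 chain that pairs with the alpha 2 chain of ITGA2, averaged 370 ± 104 CPM in Th2-like cells, 264 ± 77.9 CPM in GATA3-only cells and 129 ± 48.9 CPM in GATA3-zero cells. Its log2 fold change was 0.45 ± 0.07 over GATA3-only cells (higher in 16 dogs, under the fold threshold) and 1.51 ± 0.09 over GATA3-zero cells (17 of 17). The list of 16 adhesion and homing genes had 2 that rose against GATA3-zero cells and 1 that fell. ITGA1, another integrin alpha chain, was lower in 17 of 17 dogs and CXCR4 in 16. Of 16 memory and activation genes 7 rose against GATA3-zero cells and 0 fell, among them VIM, vimentin (0.76 ± 0.04), LGALS1 (1.11 ± 0.06) and AHNAK (1.35 ± 0.11). Of 14 naive and central memory genes 9 fell and 0 rose (median log2 fold change -0.82), with CCR7 at 123 against 257 CPM (-1.15 ± 0.06) and LEF1 at 923 against 1583 CPM (-0.85 ± 0.04), both lower in 17 of 17 dogs. The lists of other helper states also held genes that rose: 6 of 13 Th17 genes (median 1.03), 3 of 10 regulatory T cell genes, among them IL2RA (1.32 ± 0.15) and IKZF2 (1.06 ± 0.12), and 7 of 15 Th1 genes, while 2 other Th1 genes fell. Of 8 gamma-delta T cell markers 7 rose. Of 8 myeloid markers 5 fell and S100A8 rose (2342 against 980 CPM, 1.27 ± 0.06, higher in 17 of 17 dogs), and their summed level had a median of 2482 CPM in Th2-like and 1221 CPM in GATA3-zero cells (55.9 and 351 CPM without S100A8). MKI67 and TK1 of the cell cycle list rose (1.70 ± 0.34 and 1.52 ± 0.31) and did not pass against GATA3-zero cells of the nearest UMI total.

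CCR6-positive CD4 T cells, in which none of the 4 genes was detected, were the next comparison, as CCR6 marks Th17-like cells. CCR6-positive cells had a median UMI count of 6826 ± 1131 (SD over 17 dogs), and Th2-like cells had the higher median in 7 of 17 dogs. Only 7 dogs had 25 cells of each (4 healthy, 3 OS), and 47 of 10721 genes passed (0.438%), 27 higher in Th2-like cells (0.252%) and 20 lower (0.187%). GZMK, granzyme K, averaged 58.9 ± 33.3 CPM in Th2-like cells and 1.66 ± 2.12 CPM in CCR6-positive cells (log2 fold change 4.89 ± 0.44), and MAML3, a Notch coactivator, 158 ± 97.4 against 28.8 ± 23.0 CPM (2.51 ± 0.18). Both were higher in 7 of 7 dogs. Against GATA3-only cells, however, GZMK was higher in 9 dogs and lower in 8, and against GATA3-zero cells higher in 7 and lower in 10. The cytotoxic list had 7 genes tested, of which 2 rose and 0 fell (median 2.01). Among 7 gamma-delta T cell markers 0 passed (median 1.09). RNF220 (0.98 ± 0.19) and LGALS3 (0.67 ± 0.11) rose, whereas S100A2 (0.46 ± 0.20) and PTPN13 (-0.34 ± 0.14) did not pass. Of 13 Th17 genes 6 fell and 0 rose (median -1.03) beside CCR6, which chose the comparison cells: IL23R, the receptor of IL-23, stood at 3.93 against 20.0 CPM (-2.09 ± 0.49), IL1R1 at 5.29 against 20.6 CPM (-1.91 ± 0.44) and NTRK2 at 27.0 against 52.0 CPM (-1.03 ± 0.23). The study gave NTRK2, ADAM12, NRG2, RGS17, DNAH8, NPAS2, RORA and LTBP1 of this list for Th17-like cells, together with CCR6. It drew them from the same libraries, so the direction of these genes is no independent evidence. LRIG3 was lower as well, at 7.45 ± 3.71 against 33.7 ± 18.9 CPM (-2.15 ± 0.35, lower in 7 of 7 dogs). Of 14 naive and central memory genes 3 rose and 2 fell. RGS10 (86.2 against 41.3 CPM, 1.06 ± 0.19) and ZNF536 (4.45 ± 0.61) were among those higher in Th2-like cells, and TSHZ2 (-1.04 ± 0.16) and EFHC2 (-0.68 ± 0.13) were the 2 that fell. AUTS2, which is on no list, rose as well (2.31 ± 0.31). The calls of RGS10, ZNF536, TSHZ2 and AUTS2 ended under DESeq2, and that of RGS10 under filterByExpr too. DESeq2 called 13 genes in this comparison, CCR6-positive cells set beside Th2-like cells of the nearest UMI total gave 25, and a fit on 16 dogs with at least 10 cells called 80. The calls of NTRK2 (-0.35), RNF220 (0.67), LGALS3 (0.52), IL23R (-2.14), IL1R1 (-1.64), TSHZ2 (-0.80) and EFHC2 (-0.49) ended at the nearest UMI total, and those of the first 5 also under DESeq2. Single dogs decided several calls as well: RNF220 did not pass without healthy dog 1 (0.81), LGALS3 without healthy dog 6 (0.53), IL23R without OS dog 8 or 10 (-1.49 and -1.79), NTRK2 without healthy dog 1 or 2 or OS dog 8 (-0.66, -0.87 and -0.97) and IL1R1 without healthy dog 1, 2 or 4 or OS dog 8 (-1.89 to -1.56). FOXP3-positive cells were at most 7 in a dog and could not be compared.

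Variation among Th2-like cells was examined by the number of the 4 genes they carried, a split that was also made after the data had been examined. The 599 cells with at least 2 genes were set against the 1634 with 1 gene, in the 13 dogs with 25 cells of each. The former had the higher median UMI count in 14 of 17 dogs, with medians of 7202 against 6372 as means over dogs. Of 11328 genes 98 passed (0.865%), 61 higher in cells with at least 2 genes (0.538%) and 37 lower (0.327%). With cells of the nearest UMI total 82 passed.

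LGALS3 averaged 456 ± 169 CPM in cells with at least 2 genes and 202 ± 66.7 CPM in cells with 1 gene, and was higher in 13 of 13 dogs (log2 fold change 1.08 ± 0.08, adjusted p = 4.7e-20). RNF220 averaged 128 ± 69.3 against 48.1 ± 18.4 CPM (1.34 ± 0.13, higher in 12 of 13). S100A2 rose too (0.72 ± 0.14), and PTPN13 did not pass (0.39 ± 0.11, adjusted p = 0.0228). The study named LGALS3, RNF220, S100A2 and PTPN13 for the same cluster as the genes of the split. They were picked from these libraries, so their direction is no independent evidence. GLYAT, a glycine acyltransferase, averaged 25.2 ± 18.1 against 6.10 ± 4.49 CPM (2.01 ± 0.27) and MVB12B, a subunit of the ESCRT-I sorting complex, 81.0 ± 36.8 against 29.3 ± 14.8 CPM (1.44 ± 0.15). CRLF2 reached 17.9 ± 12.2 CPM against 4.52 ± 3.64 CPM (1.87 ± 0.33, higher in 12 of 13). DGKG, a diacylglycerol kinase, SLC4A4, CLSTN2, TJP1, a tight junction scaffold, and ITGA9, an integrin alpha chain, rose by 1.31 to 1.45 on the log2 scale. The TJP1 call ended without healthy dog 1 or 4 or OS dog 2 or 7 (1.29 to 1.44), and that of ITGA9 without OS dog 1 or 7 (1.26 and 1.27). GATA3, which the rule used, stood at 267 and 230 CPM and was higher in 12 of 13 dogs.

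**Figure D5:**
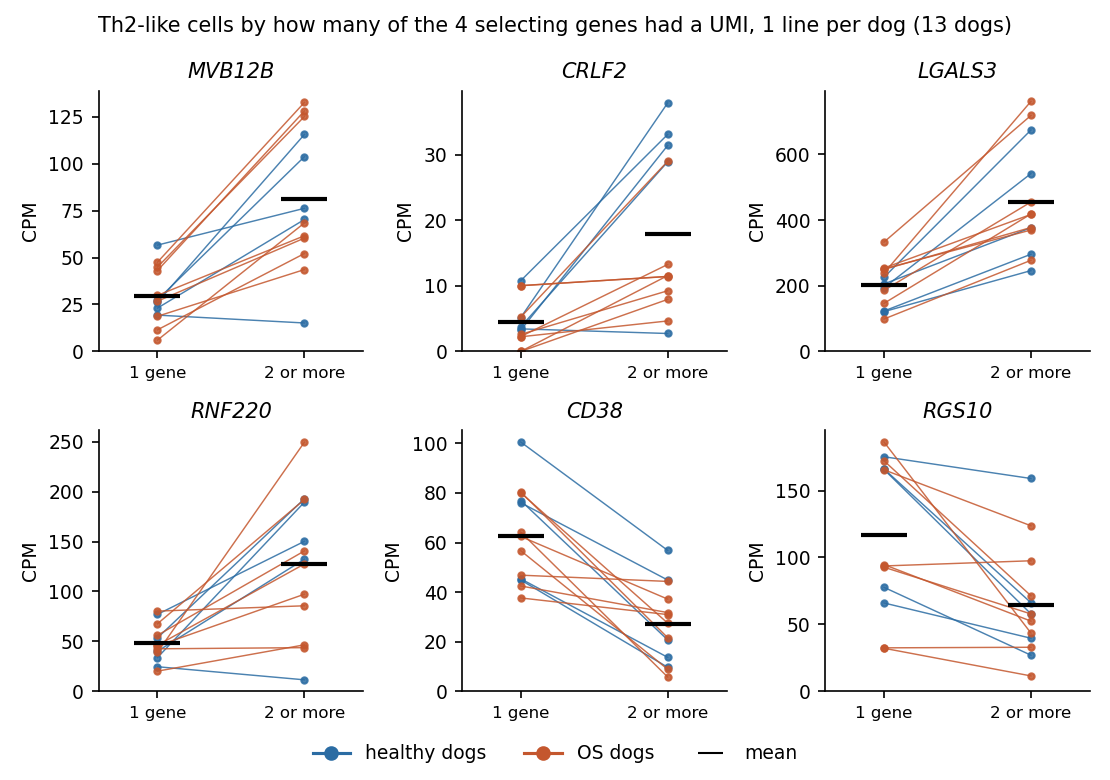
CPM of 6 genes (y axes) in Th2-like cells with 1 and with at least 2 of ITGA2, CCDC3, PPEF1 and CMA1, with 1 line per dog (13 dogs; blue healthy, orange OS) and the mean as a black bar. MVB12B rose from a mean of 29.3 to 81.0 CPM, CRLF2 from 4.52 to 17.9 CPM and RNF220 from 48.1 to 128 CPM, while CD38 fell in each dog.

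Cells with at least 2 genes were lower in CD38, an ectoenzyme of activated lymphocytes, at 27.2 ± 15.8 against 62.7 ± 19.1 CPM in 13 of 13 dogs (log2 fold change -1.19 ± 0.16). GZMK stood at 19.8 ± 24.2 against 54.7 ± 39.0 CPM (-1.40 ± 0.21) and KLRK1 at 13.8 ± 10.9 against 31.6 ± 29.4 CPM (-1.21 ± 0.25). Of 9 cytotoxic genes these 2 fell and 0 had a log2 fold change above 0 (median -1.0). Of 15 Th1 genes 4 fell and 0 rose, among them CCL5 (-2.04 ± 0.30), RCAN2 (-0.70 ± 0.15) and PRUNE2 (-0.60 ± 0.13), the last 2 being genes of the study. CCL5 stood at 0 in 8 of the 13 dogs among cells with at least 2 genes. MKI67, of dividing cells, averaged 2.68 ± 2.84 against 10.6 ± 10.1 CPM (-1.80 ± 0.45), and HDAC9, a histone deacetylase, 2.27 ± 2.52 against 10.8 ± 9.88 CPM (-1.97 ± 0.45). RGS10 fell further (64.6 against 117 CPM, -0.93 ± 0.12). Of 8 gamma-delta T cell markers CDH4 (2.10 ± 0.31) and TGFBR3 (0.83 ± 0.17) rose, and their summed level was higher in 13 of 13 dogs (median 164 against 87.6 CPM). The summed cytotoxic level was higher in 2 of 13 dogs (median 55.9 against 123 CPM). The calls of MKI67 ended when any 1 of 7 dogs was left out (healthy 2, 4 and 6, OS 2, 4, 8 and 10; -1.84 to -1.48), of HDAC9 without OS dog 1 or 6 (-1.76 and -1.71) and of PRUNE2 without OS dog 6, 7 or 10 (-0.57 to -0.48). When CMA1 was not counted, 4 dogs had enough cells and 33 genes passed. RNF220 and MVB12B were among these, whereas CRLF2 (0.62), CD38 (-1.04), GZMK (-1.53) and KLRK1 (-2.47) did not pass, LGALS3 stood at 0.57, just under the fold threshold, and CCL5 at -0.11. DESeq2 called 46 genes higher and 6 lower, and the calls of CCL5, GZMK and KLRK1 ended there (log2 fold changes -2.10, -1.81 and -1.12).

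To examine whether expression within Th2-like cells differed between the groups of dogs, the summed counts of these cells were compared between 10 OS and 7 healthy dogs. In edgeR 0 of 11523 genes passed (0% of genes), 470 had an unadjusted p below 0.05, and DESeq2 also called 0 genes with 343 at an unadjusted p below 0.05. The genes tested included GATA3, ITGA2, CCDC3, PPEF1 and CMA1, which the rule used, so their values are a description only. GATA3 stood at 252 ± 22.8 CPM in OS and 236 ± 29.1 CPM in healthy dogs. LGALS3 stood at 308 ± 83.2 and 268 ± 79.1 CPM (log2 fold change 0.22 ± 0.21) and RNF220 at 65.2 ± 30.1 and 81.8 ± 31.3 CPM (-0.19 ± 0.28). The lists of Th2 transcription factors, cytokines and receptors had 0 genes past the thresholds, out of 10, 1 and 9 tested.

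Among genes at a mean of at least 10 CPM, the smallest p of those higher in OS belonged to NTRK2, which ran from 18.2 to 53.4 CPM in OS dogs (median 32.5) and from 5.77 to 25.8 CPM in healthy dogs (median 15.5). The ranges overlapped, and the log2 fold change of 1.11 ± 0.25 did not pass (adjusted p = 0.951). CPT1A, the enzyme that admits fatty acids to mitochondria, followed at 86.6 ± 25 against 52.7 ± 13.3 CPM (0.76 ± 0.18, adjusted p = 0.951), then GLA, the lysosomal alpha-galactosidase, at 37.5 ± 9.84 against 19.0 ± 10.0 CPM, SCGB1A1 and UBE2E3. CARMIL1, HHAT, NR3C2, SEC23A and CLYBL had the smallest p among genes lower in OS at that level, with log2 fold changes from -0.96 to -0.45, and did not pass. Below that level, the B cell marker EBF1 stood at 0.254 ± 0.605 CPM in OS and 5.76 ± 8.54 CPM in healthy dogs (-3.38 ± 0.79, adjusted p = 0.951). The difference between Th2-like and GATA3-only cells was likewise tested for a change with OS, and 0 of 12535 genes passed (0%), with 430 at an unadjusted p below 0.05 in edgeR and 153 in DESeq2, which called 0.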

How the data were processed

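Blood leukocytes of 17 dogs were profiled with 10x Genomics 3′ single-cell chemistry, 1 library per dog. The deposited files hold raw UMI counts per gene and barcode, which the authors made with Cell Ranger 7.0.0 against CanFam3.1 with a filtered Ensembl annotation. The authors ran the alignment both counting and ignoring introns. Which output was deposited is not given in the sources used here. Of 93013 deposited barcodes, 84361 with 200 to 4500 genes, 500 to 20000 UMIs and less than 10% mitochondrial UMIs were kept. Populations were defined by detected transcripts and not by clusters. Depth limits that rule, as a cell with 1 UMI of a gene can be missed at lower depth, so shares were recomputed with barcodes thinned to 2000 UMIs. Doublets were scored with Scrublet (in scanpy 1.11.5). The highest scores up to a preset rate of 0.8% per 1000 barcodes were marked, and marked barcodes were removed only in an alternative.

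Shares were compared between 7 healthy and 10 OS dogs by Wilcoxon rank-sum tests (exact, two-sided), with the exact Hodges-Lehmann shift and its 95% interval. A planned permutation test of co-detection is not reported, since it used the genes of the rule. For expression, counts were summed per dog and population for dogs with at least 25 cells of each, genes with at least 10 counts were kept, and edgeR 4.0.16 (quasi-likelihood test, TMM, Benjamini-Hochberg adjustment, dog as block between populations) was run over all genes in R 4.3.3. Calls needed an adjusted p under 0.01 and a log2 fold change beyond 0.58 in either direction. Genes of the gates were left out of the tests between populations. GATA3, ITGA2, CCDC3, PPEF1 and CMA1 stayed in the test between OS and healthy dogs. Fits that left out 1 dog reused the dispersion trend of the fit on all dogs. DESeq2 1.42.0, other filters and other comparison cells were alternatives, and the scripts were tested on simulated data. P-values between OS and healthy dogs measure the spread between dogs. Those between populations measure the spread over dogs of the difference within a dog, as dog was the block.

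The genes named were those of the lists and, per comparison, the 10 with the largest change in each direction among called genes at a mean of at least 10 CPM in the higher population and the same direction in at least 80% of dogs (for OS against healthy dogs, the 5 with the smallest p in each direction). The members, lists and comparisons were chosen with earlier results of these data known. BHLHE41, BATF, IL9R, CD200R1, KLF2, S100A4, S100A10, GP1BA and TREML1 were listed but had no entry by symbol. Some genes that met the rule are not reported here. Whether a named gene shares reads with a paralog or an overlapping gene was not checked.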

Additional observations from a re-analysis of the deposited data

Results flagged for a closer look

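In 6 of 74 groups of dogs tested, 1 dog stood far above the others of its group in the level of a named gene in Th2-like cells. Chance alone gives such a dog in about 5% of groups if the values are normally distributed. Low CPM values with dogs at 0 need not be, and their chance rate was not estimated. KCNC2 reached 60.9 CPM in OS dog 10, where the next OS dog had 22.7 CPM. CLSTN2 reached 88.9 CPM in OS dog 6, with the next at 38.6 CPM. SLC4A4 reached 29.7 CPM in healthy dog 2, with the next at 11.4 CPM. MAL reached 21.6 CPM in OS dog 9, with the next at 6.11 CPM. AUTS2 reached 218 CPM in healthy dog 5, with the next at 88.9 CPM, and ZNF536 reached 108 CPM in OS dog 5, with the next at 51.6 CPM. Each value came from 1 library. Of 49 genes compared for opposite directions in healthy and OS dogs, 0 had every dog of a group on 1 side and every dog of the other group on the opposite side. Genes named for the largest changes against GATA3-only cells had to share a direction in more dogs than either group holds. Such a split was therefore impossible for those genes, and the result says nothing about them.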

How the results depend on the processing

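The share of CD4 T cells kept its direction in the 23 alternatives and passed in none, with differences of 2.36 to 3.95 percentage points when 1 dog was left out (exact Wilcoxon p from 0.0712 to 0.313). The share of all kept barcodes ran from -0.173 to 0.362 percentage points when 1 dog was left out and changed sign without healthy dog 3 (-0.0500), 4 (-0.0361) or 7 (-0.173) or OS dog 4 (-0.150), 7 (-0.0186) or 8 (-0.00686). Against GATA3-only cells, filterByExpr gave 67 genes, no dog block 7, and leaving out 1 dog 103 to 130. Against CCR6-positive cells, DESeq2 gave 13 genes, filterByExpr 26, at least 10 cells per dog 80, no dog block 4, comparison cells of the nearest UMI total 25, and leaving out 1 dog 37 to 48. Against GATA3-zero cells, no dog block gave 379 genes and leaving out 1 dog 565 to 633. For cells with at least 2 genes, DESeq2 gave 52 genes, filterByExpr 57, CMA1 not counted 33, no dog block 7, and leaving out 1 dog 82 to 112. filterByExpr tested fewer genes, and CMA1 not counted used fewer dogs and changed which cells were in each group. The cause of these and the other changes was not tested. OS against healthy dogs gave 0 genes in the 25 alternatives. The change with OS of the difference from GATA3-only cells gave 10 genes with no filter on counts, 2 with doublets removed and 0 to 1 when 1 dog was left out (1 without OS dog 5 and 1 without OS dog 9).

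With counts as deposited the co-detection differences were 14.5 (ITGA2 and CCDC3), 9.22 (ITGA2 and PPEF1), 21.3 (ITGA2 and CMA1), 9.76 (CCDC3 and PPEF1), 7.08 (CCDC3 and CMA1, -2.06 at 2000 UMIs and 2.96 at 3000 UMIs) and 1.74 percentage points (PPEF1 and CMA1, -1.94 at 2000 UMIs and -4.63 at 3000 UMIs). With CMA1 not counted, KLRK1 turned to -0.0111 against GATA3-only cells, and KANK1 to 0.47 and ZNF536 to 0.11 in cells with at least 2 genes. CMA1 and PPEF1 are genes of the rule, and their log2 fold changes between OS and healthy dogs are given as a description only. With 1 dog left out, CMA1 ran from -0.00428 (without OS dog 4) to 0.291. PPEF1 ran from -0.125 to 0.0263, turning positive without healthy dog 2 (0.00154) or 4 (0.00206) or OS dog 1 (0.0263) or 5 (0.00127). Of the genes followed, at least 1 alternative ended the call of 31 of 49 against GATA3-only cells, 25 of 33 against CCR6-positive cells, 4 of 42 against GATA3-zero cells and 29 of 35 in cells with at least 2 genes, most often the fit with no dog block (85 calls), DESeq2 (41) and comparison cells of the nearest UMI total (34). Dogs with the same number in the labels did not deviate together (correlations from -0.087 to 0.121, 1 of 7 pairs above 0.1, 0 of 7 dogs closest to their own number). With that replicate block the share of CD4 T cells differed by 3.61 percentage points (exact sign-flip permutation p = 0.125), that of kept barcodes by 0.170 (exact p = 0.8125), and 0 genes passed between OS and healthy dogs. FOXP3-positive cells were too few for the planned comparison. Dogs with few Th2-like cells limit the precision for genes of low counts.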
